A study of Mus musculus with 12 samples.

Results

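The genes described here were 40 genes of hepatic fatty acid use. They comprised the nuclear receptor PPARalpha, encoded by Ppara, enzymes of mitochondrial and peroxisomal fatty acid oxidation, enzymes of ketone body metabolism, and familiar targets of the receptor. They were chosen by gene symbol from a list, out of 48537 genes in the expression table. The list was drawn up with earlier results of these data known. All 40 symbols were matched and all 40 genes were abundant enough to be tested.

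PPARalpha is a ligand-activated transcription factor that forms a heterodimer with the retinoid X receptor and, in liver, drives genes for fatty acid uptake, oxidation and ketone body synthesis, above all in fasting. Fatty acids are bound, activated to acyl-CoA and carried into mitochondria by the carnitine shuttle. There they are shortened by repeated rounds of dehydrogenation, hydration, dehydrogenation and thiolysis, while very long and branched chains are first shortened in peroxisomes. The acetyl-CoA so formed can leave the liver as ketone bodies. Nr1d1 and Nr1d2 encode REV-ERBalpha and REV-ERBbeta, repressors of transcription in the circadian clock.

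Whole mouse livers were collected at zeitgeber time 10, counted in hours from lights on, and sequenced as 3 groups of 4 livers. The re-expression livers carried the REV-ERB double knockout and expressed REV-ERBalpha again (REV-ERBalpha-WT in the sample titles). The livers labelled DKO carried the double knockout and, by title, YFP, a fluorescent protein. Control livers were wild type, also with YFP. One column name, YFP_Cre for the livers labelled DKO, also names the recombinase Cre, so effects of Cre cannot be told apart from those of the knockout. Strain, age, sex, the promoter driving Cre and the way REV-ERBalpha was returned could not be taken from the sources used here. By the labels the libraries are biological replicates, 1 liver each, and p-values measure the spread between these livers.

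DNA binding by PPARalpha involves repeats of the hexamer AGGTCA, which is also the core of the REV-ERB response element. RefSeq promoter windows, of 250 bases before and 50 bases after an annotated start, were matched for 34 of the 40 genes. At least 1 copy of AGGTCA on either strand stood in the windows of 6 of the 34 genes, namely Slc27a2, Acadm, Fabp1, Echs1, Acadvl and Cpt1a. Counted over windows, since a gene can have several starts, the hexamer was in 15.8% of the windows of these genes and in 16.3% of all promoter windows in the table. A match of letters is a description and not a binding site. The 250 bases before the start are shown for Ppara and Cpt1a, the members whose RNA fell in livers labelled DKO, and for Fabp1, the most abundant member and the one with 2 copies. Build GRCm38.p6 was used, all 3 genes lie on the plus strand, and capitals mark TGACCT, which is AGGTCA read on the opposite strand.
Ppara, chr15:85735526-85735775: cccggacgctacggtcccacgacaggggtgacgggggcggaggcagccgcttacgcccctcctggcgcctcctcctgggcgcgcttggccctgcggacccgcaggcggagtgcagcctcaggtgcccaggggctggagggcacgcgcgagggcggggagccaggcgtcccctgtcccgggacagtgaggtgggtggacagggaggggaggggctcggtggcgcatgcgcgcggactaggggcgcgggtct
Cpt1a, chr19:3323051-3323300: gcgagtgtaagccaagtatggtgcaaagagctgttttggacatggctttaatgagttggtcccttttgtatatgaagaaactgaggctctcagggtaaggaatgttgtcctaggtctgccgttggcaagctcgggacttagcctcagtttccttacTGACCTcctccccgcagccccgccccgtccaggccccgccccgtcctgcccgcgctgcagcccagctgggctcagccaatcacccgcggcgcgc
Fabp1, chr6:71199629-71199878: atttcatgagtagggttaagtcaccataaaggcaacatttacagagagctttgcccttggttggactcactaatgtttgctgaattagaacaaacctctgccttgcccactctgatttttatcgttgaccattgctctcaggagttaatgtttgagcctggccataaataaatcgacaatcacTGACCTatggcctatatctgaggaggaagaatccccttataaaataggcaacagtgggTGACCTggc
The Ppara window held no copy of the hexamer. The copy of Cpt1a began 94 bases before its start, and the copies of Fabp1 began 67 and 9 bases before its start.

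Depth lay between 5621667 and 6906221 reads per library, recovered from the steps of the deposited TPM values (a relative transcript level that allows for gene length and library size). The group labels were checked on the clock genes. Nr1d1 averaged 191 ± 22.4 TPM in re-expression livers, 82.5 ± 7.39 TPM in livers labelled DKO and 68.7 ± 5.53 TPM in control livers (SD, n = 4 each), and Nr1d2 averaged 97.7, 90.4 and 96.6 TPM in the same 3 groups. Neither knocked-out gene was called lower in livers labelled DKO than in control livers (log2 difference 0.26 for Nr1d1 and -0.09 for Nr1d2, adjusted p = 0.173 and 0.792, limma), so these livers are called by their label throughout, and the files do not show which exons the reads came from. Arntl, a clock gene that REV-ERBs repress, averaged 15.1 ± 1.09 TPM in re-expression livers, 19.8 ± 1.27 TPM in livers labelled DKO and 0.728 ± 0.205 TPM in control livers (SD, n = 4 each). Of 6 hepatocyte markers, 2 were called higher in livers labelled DKO than in control livers, and the sum of the 6 ran from 40327 to 43689 TPM in livers labelled DKO and from 37711 to 42972 TPM in control livers. The 6 did not go 1 way, with 5 differences above 0 and 1 below. The 1 below was Alb, the most abundant, at 19309 to 21880 TPM in livers labelled DKO and 22063 to 24464 TPM in control livers, without a call. Of 6 stellate cell markers, 4 were called higher in livers labelled DKO, where their sum ran from 373 to 398 TPM, against 233 to 339 TPM in control livers. Of 4 tested cholangiocyte markers, 1 (Sox9) was called higher there. The most abundant of them, Spp1, went the other way without a call, at 69 TPM in livers labelled DKO and 81.5 TPM in control livers. The 5 listed cholangiocyte markers summed to 76.7 to 86 TPM in livers labelled DKO and 74.5 to 104.7 TPM in control livers. None of 6 Kupffer cell, 5 sinusoidal endothelium and 5 red blood cell markers was called by limma, with 0, 3 and 5 of them at an unadjusted p under 0.05 and 0, 0 and 1 called by voom. The red blood cell markers summed to 400 to 686 TPM in livers labelled DKO and 276 to 382 TPM in control livers, and the endothelium markers to 170.2 to 214 TPM in livers labelled DKO and 147 to 162 TPM in control livers. Between re-expression and control livers, 1 of the 6 stellate cell markers and Sox9 were called higher and no hepatocyte marker was called. The stellate cell markers summed to 305 to 381 TPM in re-expression livers, and the red blood cell markers to 372 to 835 TPM, with 4 of these 5 at an unadjusted p under 0.05, 0 called by limma and 1 by voom. Between re-expression livers and livers labelled DKO no marker was called by limma or voom, and the endothelium markers summed to 117 to 178 TPM in re-expression livers, with 3 of 5 at an unadjusted p under 0.05. Of 5 adipocyte genes, Adipoq and Lep were at 0 in all 12 livers, and Cfd and Plin1 reached at most 1.24 and 0.0979 TPM. Cidec, the 1 tested, is also listed below among the targets of PPARalpha that are not members, so it is not a marker of adipocytes alone. It ran from 4.42 to 9.46 TPM in livers labelled DKO and from 7.44 to 14.3 TPM in control livers. Between these groups it had an unadjusted p under 0.05 by limma without a call, and it was called by voom. Whole tissue was measured, so fewer cells of a type and less RNA per cell cannot be told apart, and the part of cell makeup in the differences given next was not tested.

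Between livers labelled DKO and control livers, the main changes were a fall of the receptor Ppara and of the carnitine shuttle enzyme Cpt1a, and a rise of Acsl1, Etfa, Etfdh, Acox2, Acat1 and Pdk4. The 9 enzymes of the mitochondrial oxidation spiral gave no call. By limma on log2(TPM + 1), with a Benjamini-Hochberg adjusted p under 0.05 as the threshold, 8 of the 40 members (20%) were called, 6 higher and 2 lower, and 16 had an unadjusted p under 0.05. The background was 5.33% of the 17957 genes tested, 2.99% higher and 2.34% lower, with 3296 of them (18.4%) at an unadjusted p under 0.05. The called share was 8.41% among the 8261 genes with a mean of at least 10 TPM, a level that 39 of the 40 members reached. The median difference of the members was 0.04 on the log2 scale, beside 0.00 over all genes tested, so the calls did not come with a shift of the whole list. All TPM values of livers labelled DKO lay above those of control livers in 11 members and below them in 3, which is 35% of the list, beside 11.5% of all genes tested (6.13% above and 5.4% below). Such shares without overlap were not computed for genes with a mean of at least 10 TPM in any comparison, so they are not matched for level. Because the list was chosen with earlier results of these data known, its shares in every comparison are a description. They are not a test of the pathway against other genes.

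**Figure D1:**
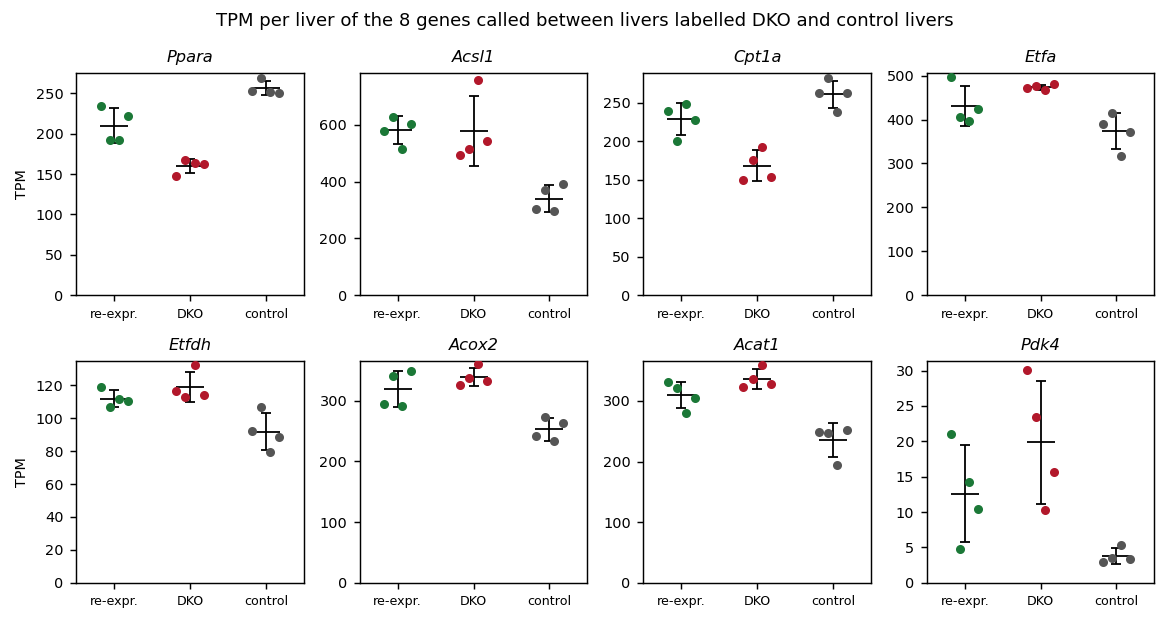
TPM (vertical axis, from 0) of the 8 members with a call for DKO against control, 1 point per liver, with mean and SD bars for re-expression livers, livers labelled DKO and control livers (n = 4 each). Ppara and Cpt1a are lower in livers labelled DKO, the other members shown are higher there, and livers labelled DKO and control livers do not overlap in any panel.

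Ppara (chromosome 15, 85734983 to 85802819, mm10, plus strand) had 147, 167, 164 and 162 TPM in livers labelled DKO and 253, 268, 251 and 251 TPM in control livers. Every control liver lay above every liver labelled DKO. The mean was 0.626 times that of control livers, with a log2 difference of -0.67 ± 0.08 (SE, adjusted p = 0.000394, limma). The call held in each of the 21 alternative analyses run. Re-expression livers had 234, 192, 192 and 222 TPM, between both other groups and overlapping neither. Their log2 difference was 0.38 ± 0.08 against livers labelled DKO (SE, adjusted p = 0.129, limma) and -0.29 ± 0.08 against control livers (SE, adjusted p = 0.0863, limma). The second of these reached the threshold with voom on recovered reads (adjusted p = 0.044) and without re-expression replicate 1 (adjusted p = 0.0494, limma).

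Among the genes of fatty acid uptake, binding and activation, Acsl1 was the 1 of 7 that was called. It encodes a long-chain acyl-CoA synthetase, which attaches coenzyme A to fatty acids (chromosome 8, 46471037 to 46536051, plus strand). Acsl1 had 578, 625, 513 and 604 TPM in re-expression livers, 495, 514, 757 and 544 TPM in livers labelled DKO, and 303, 369, 296 and 391 TPM in control livers. Both other groups lay wholly above the control livers, and they overlapped each other. The log2 difference was 0.75 ± 0.14 for livers labelled DKO against control livers (SE, adjusted p = 0.00952, limma), a mean 1.7 times as high, and this call was lost with control replicates 1 and 2 left out together (adjusted p = 0.0607). For re-expression livers against control livers it was 0.78 ± 0.14 (SE, adjusted p = 0.0154, limma). That call was lost with the replicate number as a block (adjusted p = 0.0537), with either pair of control livers left out (adjusted p = 0.0787 and 0.058), and without re-expression replicate 2, re-expression replicate 4 or control replicate 3 (adjusted p up to 0.054). An antisense gene model, Gm45244, shares 9.13% of the 50-base windows of Acsl1 transcripts, and the sources used here do not say whether the authors' counting used strand.

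The related synthetase Acsl5 had 208, 225, 204 and 218 TPM in livers labelled DKO and 185, 182, 169.6 and 187 TPM in control livers, without overlap, and was not called (log2 difference 0.24, adjusted p = 0.133, limma). Acsl3 and Acsl4, synthetases that favour other chain types, overlapped between groups in every comparison. Fabp1, the liver fatty acid binding protein, had the highest level of all members, with 9267 ± 780.0 TPM in re-expression livers, 9467 ± 689 TPM in livers labelled DKO and 9436 ± 734 TPM in control livers (SD, n = 4 each). It ranked at 9 among all genes tested by its mean in control livers. The 95% confidence interval of its log2 difference between livers labelled DKO and control livers ran from -0.19 to 0.20, and all 3 groups overlapped. Slc27a2 and Slc27a5, very long chain acyl-CoA synthetases with a role in fatty acid and bile acid activation, averaged 1061 and 1308 TPM in livers labelled DKO and 1077 and 1329 TPM in control livers, and neither was called.

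The carnitine shuttle had 1 call among 3 genes. Cpt1a, the outer membrane carnitine palmitoyltransferase and the regulated entry step of long-chain fatty acids into mitochondria (chromosome 19, 3322334 to 3385733, plus strand), had 149.7, 176, 193 and 154 TPM in livers labelled DKO and 262, 282, 238 and 262 TPM in control livers. The lowest control liver stood above the highest liver labelled DKO. Its mean was 0.644 times that of control livers (log2 difference -0.64 ± 0.10, SE, adjusted p = 0.00274, limma), and the call held in all 21 alternatives. Re-expression livers had 239, 200.1, 249 and 228 TPM, all above livers labelled DKO and overlapping control livers. The log2 difference was 0.45 ± 0.10 against livers labelled DKO (SE, adjusted p = 0.176, limma) and -0.19 ± 0.10 against control livers (SE, adjusted p = 0.464, limma).

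The partner enzyme on the inner membrane, Cpt2, had 179.7, 173, 188 and 179 TPM in livers labelled DKO and 148, 162, 135 and 162 TPM in control livers. These values did not overlap, in the direction opposite to Cpt1a, and the difference missed the threshold (log2 difference 0.25 ± 0.08, SE, adjusted p = 0.1, limma). The carnitine-acylcarnitine carrier Slc25a20 averaged 62.8 ± 7.94 TPM in livers labelled DKO and 67.5 ± 5.45 TPM in control livers (SD, n = 4 each) and overlapped.

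The mitochondrial spiral comprises the acyl-CoA dehydrogenases Acadvl, Acadl, Acadm and Acads for chains of falling length, the trifunctional protein subunits Hadha and Hadhb, the hydroxyacyl-CoA dehydrogenase Hadh, the hydratase Echs1 and the thiolase Acaa2. None of the 9 was called in any of the 3 comparisons, by limma or by voom on recovered reads. An unadjusted p under 0.05 by limma was found for 2 of them between livers labelled DKO and control livers, for 0 between re-expression livers and livers labelled DKO, and for 2 between re-expression and control livers. Their log2 differences between livers labelled DKO and control livers ran from -0.11 for Acadl to 0.22 for Acadm, and those between re-expression and control livers from 0.06 for Hadhb to 0.31 for Acads. The summed level of the 9 was 3120 ± 27.3 TPM in re-expression livers, 3051 ± 190 TPM in livers labelled DKO and 2868 ± 228 TPM in control livers (SD, n = 4 each). Acaa2 was the most abundant of them, with 1625 ± 54.7 TPM in re-expression livers, 1623 ± 117 TPM in livers labelled DKO and 1525 ± 162 TPM in control livers (SD, n = 4 each).

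Acadm, the medium-chain dehydrogenase, was the 1 gene of the spiral whose livers labelled DKO (243, 239, 233 and 222 TPM) all lay above the control livers (221, 216, 166 and 206 TPM), by a narrow margin (adjusted p = 0.21, limma). Acads, the short-chain dehydrogenase, varied most within groups, from 158 to 208 TPM in livers labelled DKO and from 109.9 to 208 TPM in control livers. Hadha and Hadhb, whose genes lie head to head 85 bases apart on chromosome 5, kept close levels, at 129.7 and 93.6 TPM in livers labelled DKO and 125 and 89.3 TPM in control livers. Sequence shared with other gene models touches Acadvl (26.9% of its 50-base windows, with the overlapping gene Dvl2) and Hadhb (18.1%, with Gm13910), so their levels are less certain.

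The 4 auxiliary enzymes that prepare unsaturated chains, Eci1, Eci2, Decr1 and Decr2, gave no call in any comparison by limma, with an unadjusted p under 0.05 for 1 of them in each comparison with livers labelled DKO and 1 call by voom. Decr1, the mitochondrial dienoyl-CoA reductase, had 179, 186, 193 and 179.6 TPM in livers labelled DKO and 156, 178, 128 and 149 TPM in control livers. It stood higher in every liver labelled DKO, and the difference was called only with voom on recovered reads (log2 difference 0.28, adjusted p = 0.157, limma, and adjusted p = 0.0431, voom). Decr2, its peroxisomal counterpart, averaged 312 ± 24.4 TPM in re-expression livers, 260.5 ± 19.5 TPM in livers labelled DKO and 284 ± 23.9 TPM in control livers (SD, n = 4 each), with overlap.

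Electrons from the acyl-CoA dehydrogenases pass through the flavoprotein of Etfa and Etfb to the ubiquinone oxidoreductase of Etfdh, and 2 of these 3 genes rose in livers labelled DKO. Etfa (chromosome 9, 55454508 to 55512243, minus strand) had 471, 476, 467 and 479.9 TPM in livers labelled DKO and 389, 414, 318 and 371 TPM in control livers. The livers labelled DKO lay within a narrow band above all control livers (log2 difference 0.35 ± 0.09, SE, adjusted p = 0.0434, limma). This call was easily lost. It failed in 13 of 21 alternatives, among them without each liver in turn except re-expression replicate 1 and control replicate 2, with adjusted p up to 0.136.

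Etfdh (chromosome 3, 79603788 to 79629500, minus strand) had 117, 113, 132 and 114 TPM in livers labelled DKO and 92.4, 107, 79.5 and 88.5 TPM in control livers. The groups did not overlap (log2 difference 0.38 ± 0.09, SE, adjusted p = 0.0316, limma). The call failed in 10 of 21 alternatives, including the replicate block (adjusted p = 0.0788) and leaving out any liver labelled DKO or control replicate 1, 3 or 4 (adjusted p up to 0.0834). Re-expression livers had 397 to 496 TPM of Etfa and 107 to 119 TPM of Etfdh, and overlapped both other groups in both genes. Etfb averaged 85.9 ± 14.6 TPM in livers labelled DKO and 78.1 ± 15.2 TPM in control livers (SD, n = 4 each) and was not called. Of its 50-base windows, 43.8% are also in the overlapping gene model Gm45233.

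In peroxisomes, 1 of 8 genes was called. Acox2, the acyl-CoA oxidase that acts on branched chains and bile acid side chains (chromosome 14, 8225511 to 8259353, minus strand), had 295, 341, 291 and 348 TPM in re-expression livers, 325, 337, 359.5 and 332 TPM in livers labelled DKO, and 241, 274, 233 and 263 TPM in control livers. Both other groups lay above all control livers. The log2 difference of livers labelled DKO against control livers was 0.42 ± 0.08 (SE, adjusted p = 0.0104, limma), which held in all 21 alternatives, and that of re-expression livers against control livers was 0.33 ± 0.08 (SE, adjusted p = 0.0606, limma), which passed with only genes of at least 5 TPM tested (adjusted p = 0.0476).

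Acaa1b, a peroxisomal thiolase of rodents (chromosome 9, 119148023 to 119157093, minus strand), had 701, 835, 585 and 1015 TPM in re-expression livers, 342, 379.5, 536 and 446 TPM in livers labelled DKO, and 579.8, 683, 751 and 1236 TPM in control livers. The livers labelled DKO lay below all others, while re-expression and control livers overlapped widely. The log2 difference of livers labelled DKO against control livers was -0.89 ± 0.24 and just missed the threshold (SE, adjusted p = 0.0526, limma). It passed in 5 of 21 alternatives, among them without control replicate 1 (adjusted p = 0.0443, limma), with the replicate block (adjusted p = 0.0365, limma) and with voom on recovered reads (adjusted p = 0.0294). Its near copy Acaa1a shares 30.5% of the 50-base windows of Acaa1b, so the split of reads between them is uncertain. Acaa1a averaged 119 ± 13.8 TPM in livers labelled DKO and 123 ± 26.9 TPM in control livers (SD, n = 4 each), with overlap.

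Ehhadh, the peroxisomal bifunctional enzyme, had 509, 331, 320.2 and 418 TPM in re-expression livers, 345, 345, 435 and 347 TPM in livers labelled DKO, and 244, 291, 207 and 295 TPM in control livers. All control livers were the lowest, yet neither difference passed (log2 difference 0.51 ± 0.16 for livers labelled DKO and 0.59 ± 0.16 for re-expression livers, SE, adjusted p = 0.101 and 0.0987, limma). Both passed with voom on recovered reads (adjusted p = 0.0321 and 0.0294). Crot, the peroxisomal carnitine octanoyltransferase, averaged 504 ± 96.7 TPM in re-expression livers, 438 ± 56.1 TPM in livers labelled DKO and 340.2 ± 51.7 TPM in control livers (SD, n = 4 each). Its difference between re-expression and control livers was called with voom (adjusted p = 0.0194) and not with limma (adjusted p = 0.101). Abcd3, a peroxisomal fatty acid transporter, Hsd17b4, the other bifunctional enzyme, and Pex11a, a peroxisome division factor, overlapped between groups and had log2 differences between livers labelled DKO and control livers of 0.03, -0.13 and -0.22.

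Of the 2 ketone body genes among the members, Acat1 rose. It encodes the mitochondrial acetoacetyl-CoA thiolase (chromosome 9, 53580522 to 53610382, minus strand), and had 332, 322, 281 and 305 TPM in re-expression livers, 323, 336, 358 and 327 TPM in livers labelled DKO, and 249.5, 247, 195 and 252 TPM in control livers. Control livers were the 4 lowest. The mean of livers labelled DKO was 1.43 times that of control livers (log2 difference 0.52 ± 0.09, SE, adjusted p = 0.00606, limma), and the call held in all 21 alternatives. Against control livers, re-expression livers gave a log2 difference of 0.40 ± 0.09 (SE, adjusted p = 0.0456, limma), a call that failed in 17 of 21 alternatives and without any 1 of the 12 livers (adjusted p from 0.052 to 0.12). Bdh1, which interconverts acetoacetate and hydroxybutyrate, averaged 164 ± 10.4 TPM in re-expression livers, 139 ± 13.8 TPM in livers labelled DKO and 144 ± 17.3 TPM in control livers (SD, n = 4 each), with no call.

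Among the other targets of PPARalpha, Pdk4 had the largest fold of all members. It encodes a pyruvate dehydrogenase kinase that spares glucose by limiting pyruvate oxidation (chromosome 6, 5483351 to 5496309, minus strand). Pdk4 had 21.1, 4.71, 14.2 and 10.4 TPM in re-expression livers, 30.1, 23.5, 10.3 and 15.7 TPM in livers labelled DKO, and 2.89, 3.47, 5.38 and 3.32 TPM in control livers. Livers labelled DKO lay above all control livers, and 1 of the re-expression livers lay within the range of control livers. The mean of livers labelled DKO was 5.28 times that of control livers (log2 difference 2.06 ± 0.40, SE, adjusted p = 0.0127, limma). This call was lost with control replicates 1 and 2 left out together (adjusted p = 0.0978). The difference of re-expression livers against control livers was 1.38 ± 0.40 (SE, adjusted p = 0.129, limma) and passed without re-expression replicate 2 (adjusted p = 0.0394, limma). Muscle, which also expresses Pdk4, left a trace in 1 liver, re-expression replicate 4, where 4 muscle markers summed to 22.7 TPM, against at most 1.54 TPM in the other livers, and Pdk4 in that liver was at 10.4 TPM.

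Fgf21, a hormone that PPARalpha induces in fasting, was at 1.74 to 4.11 TPM in livers labelled DKO and 1.22 to 7.2 TPM in control livers, with as few as 2 reads in a library. The 95% confidence interval of its log2 difference ran from -0.98 to 0.61. Vnn1, a pantetheinase, ran from 43.2 to 119 TPM in re-expression livers, from 41.9 to 74.9 TPM in livers labelled DKO and from 53.6 to 107 TPM in control livers. The 95% confidence interval of its log2 difference between livers labelled DKO and control livers, from -1.19 to 0.33, allows changes of more than the size seen in Ppara.

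**Figure D2:**
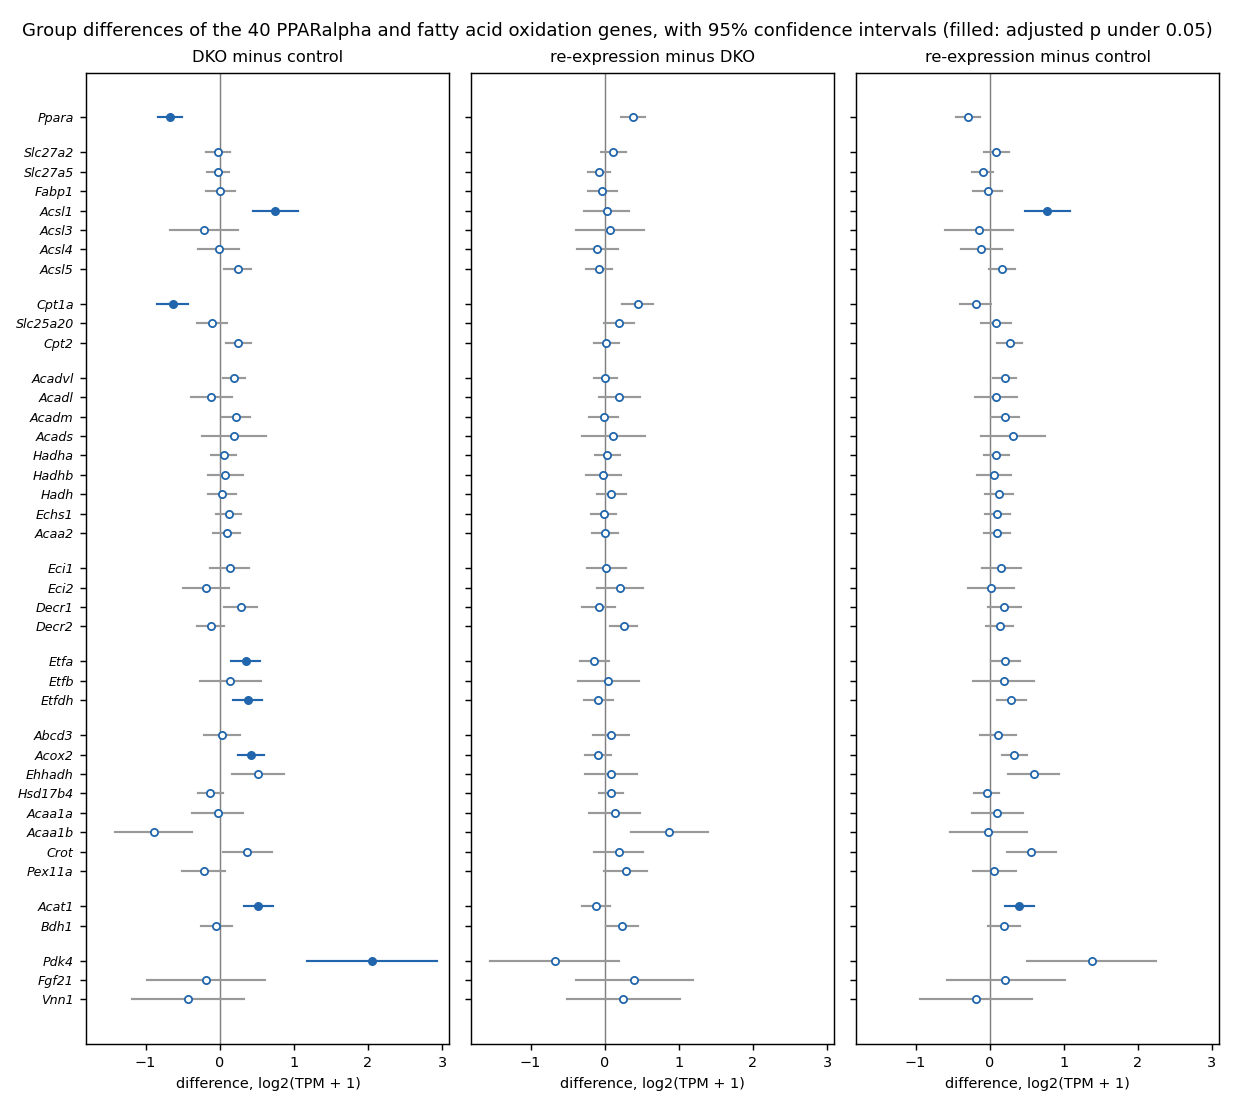
Differences on the log2(TPM + 1) scale (horizontal axis) of the 40 genes, ordered by role from the receptor to other targets, in 3 panels for DKO minus control, re-expression minus DKO and re-expression minus control; bars are 95% confidence intervals and filled points have an adjusted p under 0.05. The left panel has 8 filled points, the middle panel 0 and the right panel 2.

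Re-expression livers were next compared with livers labelled DKO. Between these groups Nr1d1 was called higher in re-expression livers (log2 difference 1.2, adjusted p = 0.000452, limma). Arntl was not called (log2 difference -0.38, adjusted p = 0.398, limma). It stayed higher in re-expression than in control livers (log2 difference 3.22, adjusted p = 2.62e-08, limma). How fully REV-ERBalpha function was returned was not tested. None of the 40 members was called by limma or by voom on recovered reads, while 5 had an unadjusted p under 0.05 by limma. The background was low as well, at 0.0724% of all genes tested, or 13 genes (0.0278% higher and 0.0446% lower). It was 0.109% of genes with a mean of at least 10 TPM. An unadjusted p under 0.05 was found for 1111 of the 17957 genes tested (6.19%). In 4 members, Ppara, Cpt1a, Acadl and Acaa1b, all re-expression livers lay above all livers labelled DKO, and in 0 members below, which is 10% of the list beside 4.25% of all genes tested (2.09% above and 2.16% below). The differences of these 4 were 0.38 for Ppara, 0.45 for Cpt1a, 0.20 for Acadl and 0.87 for Acaa1b on the log2 scale, with adjusted p of 0.129, 0.176, 0.982 and 0.367 (limma). For the 6 members that rose in livers labelled DKO, re-expression livers differed from livers labelled DKO by 0.02 for Acsl1, -0.14 for Etfa, -0.09 for Etfdh, -0.09 for Acox2, -0.12 for Acat1 and -0.68 for Pdk4 on the log2 scale. The 95% confidence interval was -0.28 to 0.33 for Acsl1 and -0.31 to 0.07 for Acat1. Both comparisons share the livers labelled DKO, so the values are set side by side and not related to each other.

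Between re-expression and control livers, Acsl1 and Acat1 were called higher and no member was called lower by limma, which is 5% of the members. The background was 1.82% of all genes tested, 1.16% higher and 0.663% lower, and 2.84% of genes with a mean of at least 10 TPM. An unadjusted p under 0.05 was found in 12 of the 40 members, beside 2251 of the 17957 genes tested (12.5%). Of the 40 members, 31 had a difference above 0, with a median of 0.12 on the log2 scale, beside 0.01 over all genes tested. The share of all genes tested with a difference above 0 was not counted. Without control replicate 3 the medians were 0.08 for the members and -0.02 over all genes, and without control replicate 4 they were 0.17 and -0.01. All re-expression livers lay above all control livers in 8 members (Acsl1, Cpt2, Acadvl, Acadm, Acox2, Ehhadh, Crot and Acat1) and below them in 1 (Ppara), 22.5% of the list beside 7.28% of all genes tested (4.29% above and 3% below). Acadvl, the very long chain dehydrogenase, had 301, 300.5, 312 and 291 TPM in re-expression livers and 263, 264, 245 and 275 TPM in control livers (log2 difference 0.20 ± 0.07, SE, adjusted p = 0.222, limma).

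**Figure D3:**
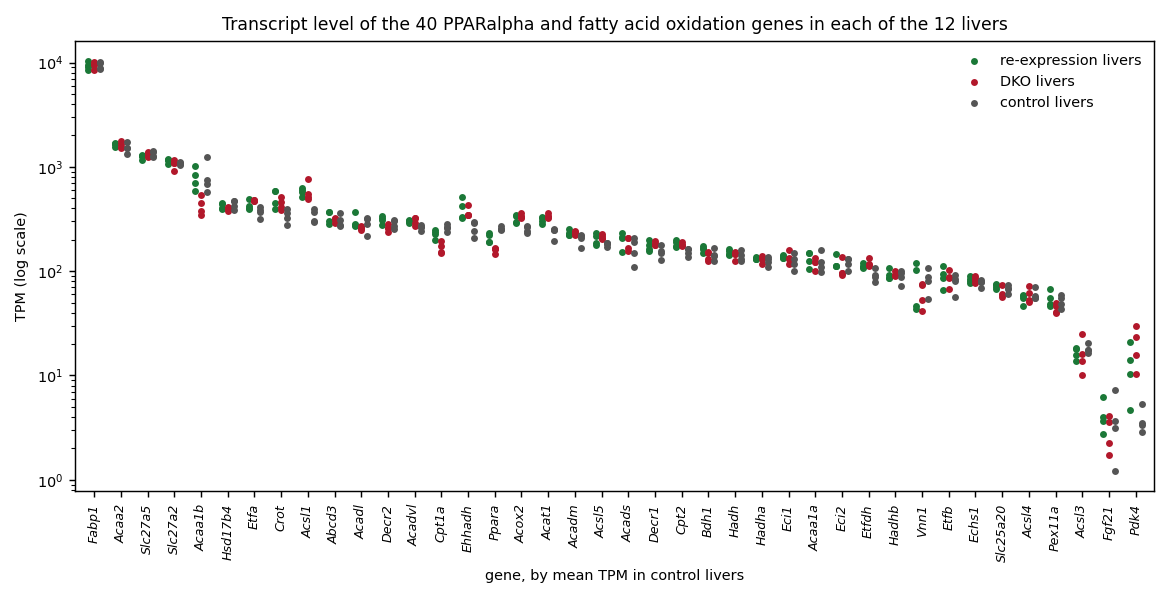
TPM on a log axis of the 40 genes in all 12 livers, 1 point per liver coloured by group (re-expression, DKO, control), with genes ordered by their mean in control livers. Levels span from about 3.76 TPM for Pdk4 to 9436 TPM for Fabp1 in control livers, and for most genes the 3 groups lie on top of each other.

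The 40 genes together held between 1.89% and 2.26% of all TPM in each liver. Their sum was 21208 ± 1138 TPM in re-expression livers, 20690 ± 1108 TPM in livers labelled DKO and 20317 ± 1546 TPM in control livers (SD, n = 4 each), so the sums differed by less than the spread within groups. Fabp1, Acaa2, Slc27a5 and Slc27a2 were the most abundant, and Pdk4, Fgf21 and Acsl3 the least, in control livers. The median coefficient of variation of TPM among the members was 9.81% in re-expression livers, 8.7% in livers labelled DKO and 12.1% in control livers. Over all genes tested it was 17.9%, 16.2% and 21.3% in these groups. Those genes reach down to a mean of 1 TPM, while 39 of the 40 members had a mean of at least 10 TPM. Whether the members vary less than genes of a like level was not tested.

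Single livers stood out across many members. Control replicate 3 was the lowest control liver in 28 of the 40 members, DKO replicate 3 the highest of its group in 26, and re-expression replicate 1 the highest of its group in 20. Without control replicate 3, the median difference of the members between livers labelled DKO and control livers was -0.01 on the log2 scale, beside 0.04 with it. Re-expression replicate 1 also had a sum of 6 Kupffer cell markers of 841 TPM, against 249 to 349 TPM in the other re-expression livers, and the part of this in its member levels was not tested.

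The wider pathway was followed in 98 other genes listed for the same roles, of which 93 were tested. These too were listed with earlier results of these data known, so their shares are a description. Between livers labelled DKO and control livers 2 were called higher and 9 lower by limma, 11.8% of the 93, beside 5.33% of all genes tested and 8.41% of those with a mean of at least 10 TPM. Among 20 partners and regulators of PPARalpha, 1 rose (Ppard) and 1 fell (Pparg). Among 26 tested targets of the receptor that are not members, 1 rose (Plin5) and 6 fell (Cyp4a12a, Slc22a5, Acot3, Acot4, Retsat and Txnip). Among 17 other genes of mitochondrial oxidation and ketone metabolism, Acsm5 fell, and among 30 other peroxisomal genes Pex26 fell.

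**Figure D4:**
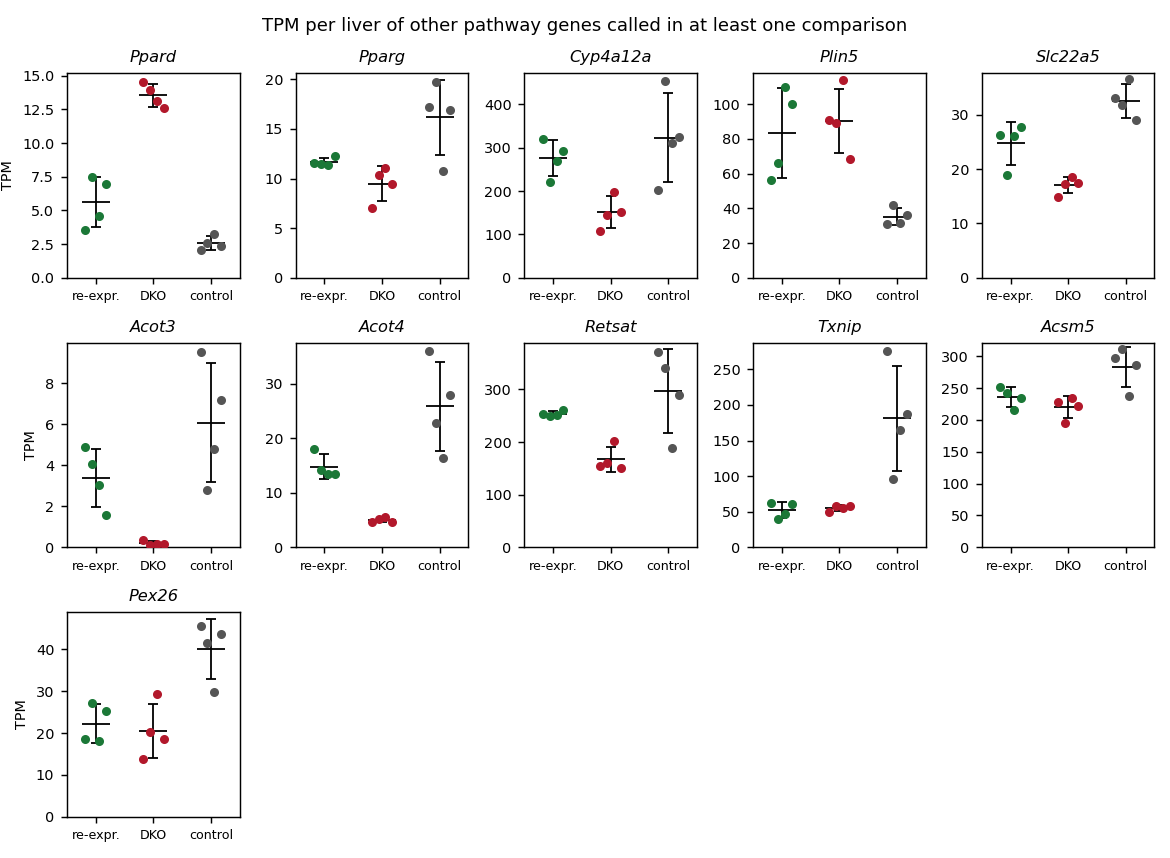
TPM per liver (vertical axis, from 0) of the 11 other pathway genes called in at least 1 comparison, with mean and SD bars, for re-expression livers, livers labelled DKO and control livers (n = 4 each). Ppard stands highest, and Acot3 and Acot4 lowest, in livers labelled DKO.

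Ppard encodes PPARdelta, a receptor of the same family. It had 3.58, 7.46, 4.55 and 6.95 TPM in re-expression livers, 14.6, 13.9, 13.1 and 12.6 TPM in livers labelled DKO, and 2.05, 2.55, 3.25 and 2.38 TPM in control livers. The 3 groups did not overlap, with livers labelled DKO highest and control livers lowest. The log2 difference of livers labelled DKO against control livers was 2.04 ± 0.19 (SE, adjusted p = 9.56e-05, limma), opposite in sign to that of Ppara, and it held in all 21 alternatives. Against livers labelled DKO, re-expression livers were at -1.18 ± 0.19 (SE, adjusted p = 0.0621, limma), a difference that passed with voom (adjusted p = 0.00456) and without re-expression replicate 2 (adjusted p = 0.0462, limma). Pparg averaged 9.47 ± 1.77 TPM in livers labelled DKO and 16.2 ± 3.8 TPM in control livers (SD, n = 4 each, adjusted p = 0.0379, limma), a call that failed in 14 of 21 alternatives, including without any 1 re-expression liver, DKO replicate 1, 2 or 4, or control replicate 1, 2 or 4. Rxra, the heterodimer partner, averaged 213 ± 21.4 TPM in livers labelled DKO and 254 ± 34.5 TPM in control livers (SD, n = 4 each) and was not called.

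Acot4, an acyl-CoA thioesterase of peroxisomes, had 18.1, 14.1, 13.5 and 13.4 TPM in re-expression livers, 4.59, 5.12, 5.45 and 4.64 TPM in livers labelled DKO, and 35.9, 22.8, 16.4 and 28 TPM in control livers. Livers labelled DKO were lowest, apart from both other groups (log2 difference -2.12 ± 0.19 against control livers, SE, adjusted p = 8.37e-05, limma). It was the 1 gene of the wider pathway called between re-expression livers and livers labelled DKO (log2 difference 1.40 ± 0.19, SE, adjusted p = 0.0261, limma), 1.08% of the 93 beside 0.0724% of all genes tested, and this call failed with the replicate block and without any 1 of the 8 livers compared. Acot3, its neighbour in the same gene family, was at 4.9, 4.06, 3.03 and 1.59 TPM in re-expression livers, 0.357, 0.131, 0.135 and 0.138 TPM in livers labelled DKO, and 9.52, 2.81, 4.8 and 7.2 TPM in control livers. Livers labelled DKO again lay below all others (adjusted p = 0.00108 against control livers, limma), with as few as 1 read in a library. Members of this family share 50-base windows with other gene models, 13.4% of those of Acot4 and 21.3% of those of Acot3, so their separate levels are less certain.

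Slc22a5, the carnitine transporter of the plasma membrane, had 14.9, 17.3, 18.5 and 17.5 TPM in livers labelled DKO and 33.1, 31.9, 36.6 and 29 TPM in control livers, without overlap (adjusted p = 0.00164, limma). Plin5, a lipid droplet protein, averaged 83.2 ± 25.9 TPM in re-expression livers, 90.5 ± 18.5 TPM in livers labelled DKO and 35.2 ± 5.02 TPM in control livers (SD, n = 4 each), and was called higher in both groups than in control livers (adjusted p = 0.0172 for re-expression livers and 0.00425 for livers labelled DKO, limma). Leaving out re-expression replicate 4, control replicate 1 or control replicate 3 ended its call for re-expression livers. Txnip, an arrestin-like protein of glucose and redox control, averaged 52.3 ± 11.1 TPM in re-expression livers, 55.3 ± 4.22 TPM in livers labelled DKO and 181 ± 74 TPM in control livers (SD, n = 4 each). It fell in both groups relative to control livers (adjusted p = 0.006 for re-expression livers and 0.00432 for livers labelled DKO, limma), and the first of these calls was lost with control replicates 3 and 4 left out together.

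Between re-expression and control livers the wider pathway had 2 genes called higher (Ppard and Plin5) and 1 called lower (Txnip), 3.23% of the 93, beside 1.82% of all genes tested. The call of Ppard there (adjusted p = 0.0435, limma) failed in 17 of 21 alternatives, including without any 1 liver other than re-expression replicate 1.

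The remaining pathway calls between livers labelled DKO and control livers were falls of Retsat (167 ± 23.9 TPM in livers labelled DKO, 298 ± 79.6 TPM in control livers), Cyp4a12a (151 ± 37 TPM in livers labelled DKO, 323 ± 103 TPM in control livers), Pex26 (20.6 ± 6.5 TPM in livers labelled DKO, 40.1 ± 7.11 TPM in control livers) and Acsm5 (219.9 ± 17.2 TPM in livers labelled DKO, 283 ± 31.9 TPM in control livers; SD, n = 4 each). Their adjusted p by limma was 0.0231, 0.0223, 0.0258 and 0.0435, and these calls failed in 8, 7, 9 and 14 of 21 alternatives. For each of the 4, leaving out DKO replicate 1, 2 or 4 or control replicate 2 alone ended the call. So did control replicate 1 for Retsat, Pex26 and Acsm5, control replicate 3 for Cyp4a12a, control replicate 4 for Pex26 and Acsm5, and DKO replicate 3 or re-expression replicate 1, 2 or 4 for Acsm5. Of the 50-base windows of Cyp4a12a, 48.9% are shared with its near copy Cyp4a12b.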

How the data were processed

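RNA-seq of 12 mouse livers was analysed. The submitters' processing notes name build mm10 and, with no roles stated, DESeq2 1.36.0, featureCounts 2.0.1, SAMtools 1.9, STAR 2.7.1a and bcl2fastq 2.17, and a stranded total RNA kit was used per the labels' protocols. The deposited values are TPM computed by the authors, and the table also gives gene lengths. Columns named by YFP alone, by Cre and by WT were matched to the control, DKO and REV-ERBalpha-WT sample titles from these words; that Cre stands for DKO is a reading of the names. The log2 fold changes deposited by the authors, for 3 unnamed comparisons, served only to see which columns the authors compared. Without group names they cannot show that Cre stands for DKO or WT for re-expression. The first differed from the log2 ratio of mean TPM of livers labelled DKO over control livers by a median of 0.0042, the second from that of re-expression livers over livers labelled DKO by 0.0131 (over genes with a mean of at least 10 TPM), and the third matched none (medians of 0.202 to 0.21). TPM is scaled to a fixed total, so a change of abundant genes moves all others. Multiplying TPM by gene length minus 199 bases gave steps of equal size within a library, and 100% of values were whole numbers of steps within 0.01 reads. These whole reads gave the depth and served voom.

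Genes with a mean of at least 1 TPM over the 12 libraries were tested, 17957 in all, including the 40 members. Group means of the 3 groups were fitted with limma 3.58.1 in R 4.3.3 to log2(TPM + 1), a scale that understates changes of low genes, with 9 residual degrees of freedom, two-sided, and Benjamini-Hochberg adjustment at 0.05 over all genes of a comparison. The procedure was tested on simulated data with the same spread setting for every gene and changes larger than those of most called members. That test therefore does not cover changes of the size of most calls here. Alternatives were a pseudocount of 0.1, no filter, a mean of at least 5 TPM, size factors, 8 libraries alone, the replicate number as a block, voom, either pair of control livers left out, and each library left out. Tables and figures used Python 3.11.15, pandas 2.3.3 and matplotlib 3.10.9. Positions are from GENCODE release 21 for mouse, and shared sequence was counted in 50-base windows of its transcripts.

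The members and lists were chosen with earlier results of these data known. All 40 members may be named, and of the other pathway genes those called in at least 1 comparison and at most 6 others per list, with Nr1d1, Nr1d2 and Arntl as the check of the labels. Some listed pathway genes are not reported here.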

Additional observations from a re-analysis of the deposited data

Results flagged for a closer look

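Within a group of 4 livers, 1 liver stood far from the other three in 7 of 120 sets of values (40 genes in 3 groups), where its gap to the nearest liver exceeded Dixon's 95% limit. Chance flags about 1 in 20 such sets, or 6 of 120.

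In re-expression livers, replicate 1 stood above the rest for 3 genes: Acadl at 371.7 TPM (the others from 272.2 to 282.6), Hadha at 137 TPM (131 to 131.6) and Eci2 at 147.2 TPM (111.2 to 112.5). In livers labelled DKO, replicate 3 stood above the rest for Eci2 at 135.6 TPM (92.12 to 95.88) and Ehhadh at 435.3 TPM (344.9 to 347.4). In control livers, replicate 2 stood above the rest for Ppara at 268.4 TPM (250.6 to 253), and replicate 3 stood below the rest for Acat1 at 194.7 TPM (246.6 to 251.6). The fall of Ppara and the rise of Acat1 in livers labelled DKO were called with and without these control livers.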

How the results depend on the processing

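Of the gene-level results under 21 alternatives at most, 2456 kept their side of the threshold, 48 fell below it and 13 passed it. Most of the 2456 were differences that stayed without a call. All 48 losses came from the few member calls of the main fit. These were 6 higher and 2 lower for DKO against control livers, and 2 higher for re-expression against control livers. Of the called results, 0 changed sign. Differences that were not called could change sign, as for Acads between livers labelled DKO and control livers (log2 difference from -0.12 to 0.51). For DKO against control livers, all genes called higher and lower numbered 328 and 231 with 8 libraries, and lower calls numbered 182 without control replicates 1 and 2 and 644 without replicates 3 and 4. Leaving out 1 library gave 332 to 524 higher and 241 to 414 lower genes, and 4 to 6 higher and 2 to 3 lower members.

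Between re-expression livers and livers labelled DKO, higher genes numbered 9 with 8 libraries, 12 with voom, 11 without control replicates 1 and 2 and 8 without replicates 3 and 4, and lower genes 21 with voom. Leaving out 1 library gave 1 to 7 higher and 4 to 8 lower genes, and 0 members.

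Between re-expression and control livers, higher genes numbered 115 with 8 libraries, and lower genes 47 with 8 libraries, 255 with voom and 58 without control replicates 1 and 2. Higher members numbered 1 with no filter, 1 with 8 libraries, 4 with voom, and 0 with either pair of control livers left out, and 1 member was lower with voom. Leaving out 1 library gave 125 to 203 higher and 50 to 129 lower genes, 0 to 1 higher and 0 to 1 lower members. The cause of these shifts was not tested.

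The replicate block gave 3 higher and 5 lower genes between re-expression livers and livers labelled DKO, and 64 lower genes and 0 higher members between re-expression and control livers. Between livers labelled DKO and control livers it gave 5 higher and 3 lower members. Same-numbered livers had r from -0.07 to 0.14 over 12 pairs, not all over 0.1, so they are taken to share only a number. Of re-expression and control livers, 8 of 8 correlated best with their own number in the other group, each pair being seen from both sides. This is a hint from the data and not the design, against 0 of 8 in each comparison with livers labelled DKO. Same-numbered re-expression and control livers had r from 0.04 to 0.14, and same-numbered pairs with a liver labelled DKO from -0.07 to -0.02. Whether re-expression and control livers were paired was not tested further. Fgf21 had as few as 2 reads in a library, and the part of depth was not tested.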

Other observations

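The omega-hydroxylases Cyp4a10 and Cyp4a14, microsomal targets of PPARalpha, were the most variable abundant genes of the wider pathway described here. Cyp4a14 had 1389, 452, 923 and 585 TPM in re-expression livers, 503, 221, 588 and 135 TPM in livers labelled DKO, and 565, 230.4, 44.5 and 108 TPM in control livers. Cyp4a10 had 1224, 636, 1028 and 938 TPM in re-expression livers, 413, 306, 837 and 272 TPM in livers labelled DKO, and 563, 533, 130.1 and 219 TPM in control livers. All re-expression livers lay above all control livers for Cyp4a10, and Cyp4a14 overlapped. Neither gene was called in any comparison (adjusted p of 0.138 for Cyp4a10 and 0.171 for Cyp4a14 between re-expression and control livers, limma). Of the 50-base windows of Cyp4a10, 24.5% are shared with Cyp4a32.

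The thioesterases Acot1 and Acot2, cytosolic and mitochondrial relatives of Acot4, lay above all livers labelled DKO in all re-expression livers, with log2 differences of 1.11 and 0.71 and adjusted p of 0.308 and 0.331 (limma). Angptl4, a secreted lipase inhibitor and target of PPARalpha, averaged 82.7 ± 5.17 TPM in re-expression livers, 85.8 ± 8.27 TPM in livers labelled DKO and 84.1 ± 14.4 TPM in control livers (SD, n = 4 each), and the 95% confidence interval of its log2 difference between livers labelled DKO and control livers ran from -0.22 to 0.30.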
